A study of Eublepharis macularius with 4 samples.

Results

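The genes described here drive DNA replication and mitosis. They were chosen by name, as a list of 33 genes, and 32 of them were found among the 24025 features of the tables. The 10 replication genes are MCM2 to MCM7, PCNA, TYMS, RRM1 and RRM2, and the 22 mitosis genes are MKI67, CDK1, CCNB1, CCNB3, CCNA2, UBE2C, ANLN, NUSAP1, CKAP2, SMC2, SMC4, DLGAP5, TOP2A, BUB1, BUB1B, AURKA, PLK1, KIF11, KIF23, TPX2, CENPE and CENPF. AURKB was not analysed here. The study measured RNA of single cells from soft jaw tissue of adult leopard geckos (Eublepharis macularius), with oral mucosa, dental lamina, dental mesenchyme and unerupted teeth. LG252 is 1 animal whose tissue was digested with collagenase D (1.5 U/ml) and dispase II (2.4 U/ml) at 37 °C for 4 to 5 h. LG255 is 1 animal whose tissue was digested with a Bacillus licheniformis protease (10 mg/ml) at 4 °C for 6 h. Live cells of both were sorted by exclusion of propidium iodide. Each animal gave 2 libraries, replicate 1 and replicate 2, and the labels do not say whether these are separate pieces of tissue, so p-values between the animals measure only the spread between these libraries, which may be technical. Animal and digestion change together and cannot be told apart.

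Before a cell copies its genome, the MCM2 to MCM7 proteins are loaded onto DNA as a ring that becomes the replicative helicase, and PCNA is the sliding clamp that holds the polymerases on the template. TYMS and the ribonucleotide reductase subunits RRM1 and RRM2 supply the nucleotides. Entry into mitosis is driven by the kinase CDK1 with its B-type cyclins. Condensins with SMC2 and SMC4 compact the chromosomes, TOP2A untangles them, and kinetochore and spindle proteins such as CENPE, CENPF, BUB1B and TPX2 align them. UBE2C is a ubiquitin-conjugating enzyme that works with the anaphase-promoting complex, which ends mitosis. Leopard geckos replace their teeth throughout life, and the successional dental lamina and the mesenchyme around it are sites of renewal, as are the basal layer of oral epithelium and activated lymphocytes.

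The tables held 4355 and 2211 cell barcodes in LG252 (replicates 1 and 2) and 755 and 1291 in LG255, with a median of 3186 and 4464 UMIs (counted RNA molecules) per barcode in LG252 and 4672 and 7522 in LG255. Mitochondrial UMIs had a median share of 0.797% and 1.16% in LG252 and 4.98% and 3.85% in LG255. A sum of 30 barcodes was shared over the 6 pairs of libraries. Cells were assigned to a class by marker UMIs: at least 3 UMIs from at least 2 genes of its list, and at least 3 times the UMIs of every other list. The gate gave 693 and 764 epithelial cells in LG252 and 560 and 995 in LG255, 424 and 837 mesenchymal cells in LG252 and 21 and 104 in LG255, 46 and 78 endothelial cells in LG252 and 21 and 14 in LG255, and 2461 and 211 immune cells in LG252 and 25 and 22 in LG255. Each class carried its own list at a summed level of at least 1618 CPM (UMIs of a list or gene per 1000000 UMIs of the sum), and no other list above 675 CPM. The mesenchymal, endothelial and immune values of LG255 and the immune values of LG252 replicate 2 rest on few cells and are worded accordingly. KIF11 overlaps IDE in the annotation, so their reads may be mixed.

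A first question was how many cells of each class carried any RNA of the genes. Cells were thinned to 2000 UMIs each, so that deep cells do not count more often, and shallower cells were left out. With thinning, at least 1 replication gene was found in 40.7% (95% exact interval 36.9 to 44.6) and 28.8% (25.5 to 32.2) of the epithelial cells of LG252, against 18.7% (15.3 to 22.4) and 17.7% (15.3 to 20.3) of those of LG255. These intervals cover counting error only. The groups did not overlap, and the means were 34.7% ± 8.44 in LG252 and 18.2% ± 0.702 in LG255 (SD, n = 2 each), a difference of 16.6 percentage points. An exact two-sided permutation test over libraries gave p = 0.333, the smallest p that this design allows. At least 1 mitosis gene was found in 26.3% and 25.6% of epithelial cells of LG252 and in 17.0% and 15.4% of those of LG255, a difference of 9.71 points with the same p = 0.333 in the exact permutation test. Without thinning, the replication shares of epithelial cells were 71.0% and 60.5% in LG252 and 32.9% and 35.4% in LG255, at median depths of 11044, 7775, 5964.5 and 8675 UMIs in the same order of libraries.

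In mesenchymal and immune cells the libraries of the animals overlapped, while in endothelial cells, which were few, they did not. In mesenchymal cells, at least 1 replication gene was found in 23.8% and 45.8% of cells of LG252 and in 31.2% and 35.9% of those of LG255, so that the LG252 libraries lay on either side of LG255. At least 1 mitosis gene was found in 14.0% and 41.8% of mesenchymal cells of LG252 and in 31.2% and 25.6% of those of LG255. Immune cells carried at least 1 replication gene in 25.3% and 17.5% of cells of LG252 and in 13.6% and 33.3% of those of LG255. Their mitosis share was the highest of the 4 classes in replicate 1 of each animal, with 43.7% and 41.6% in LG252, against 45.5% and 16.7% in LG255, where the LG255 values rest on 22 and 18 cells. Endothelial cells gave 36.7% and 30.2% for replication in LG252, against 12.5% and 0% in LG255, and 33.3% and 39.7% for mitosis in LG252, against 31.2% and 0% in LG255. These differences of 27.2 and 20.9 points also had p = 0.333 in the exact permutation test, and rest on 16 and 6 cells in LG255, where 0 of 6 cells allows a share of up to 50%.

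**Figure D1:**
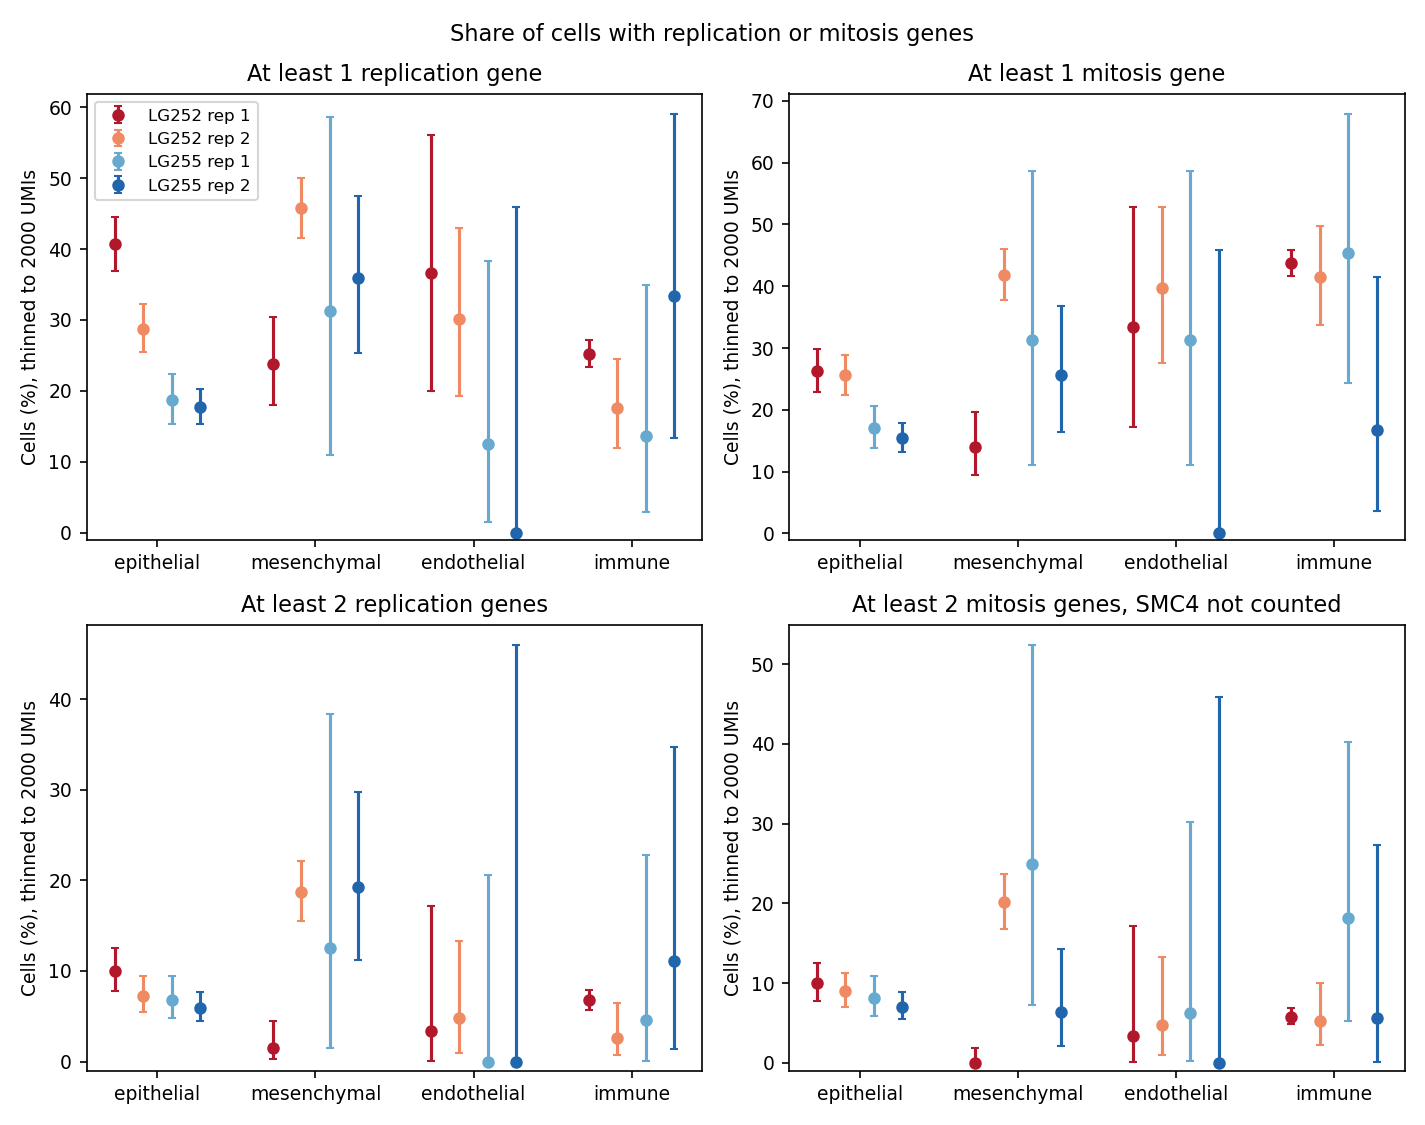
Share of cells (%, thinned to 2000 UMIs) with at least 1 or at least 2 genes of each list, by class and library; points are libraries and bars are 95% exact binomial intervals. Epithelial cells of LG252 lie above those of LG255 for at least 1 gene (40.7% and 28.8% against 18.7% and 17.7% for replication), and the gap narrows for at least 2 genes.

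A few genes carried much of these shares. PCNA held 43.5% of all UMIs of the replication list, and SMC4 held 25.4%, MKI67 11.8% and UBE2C 11.1% of those of the mitosis list. These are shares of 3′ tags, uncorrected for transcript length. PCNA is encoded on chromosome 14 (36527127 to 36531965) and SMC4 on chromosome 6 (29393020 to 29464356) of the assembly MPM_Emac_v1.0. When SMC4 was not counted, at least 1 mitosis gene was found in 17.99% ± 0.0314 of epithelial cells of LG252 and 13.0% ± 1.02 of those of LG255 (SD, n = 2 each), a difference of 5.02 points in place of 9.71. When PCNA was not counted, at least 1 replication gene was found in 17.4% ± 3.44 of epithelial cells of LG252 and 13.2% ± 0.933 of those of LG255 (SD, n = 2 each), a difference of 4.14 points in place of 16.6. Leaving out SMC4 also brought the immune mitosis shares down to 12.8% and 14.9% in LG252 and to 18.2% and 5.56% in LG255.

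To see which genes mark cells in division, each was counted in cells with at least 2 other mitosis genes and in cells with no other mitosis gene, with SMC4 not counted among these others. In epithelial cells, the 21 mitosis genes other than SMC4 were found in 6.87% to 54.9% of the first set (median 19.1%) and in 0% to 1.47% of the second (median 0.340%). MKI67, the antigen of the Ki-67 stain, was found in 54.9% of the first set and 1.47% of the second. SMC4 was found in 35.6% and 6.52% of these sets in epithelial cells, in 50% and 12.7% in mesenchymal cells, and in 49.6% and 35.0% in immune cells. SMC4 RNA was thus present in about as large a share of immune cells without any other mitosis transcript as of epithelial cells with several. PCNA, too, was found often in cells of the second set, with 36.1% and 14.4% of the 2 sets in epithelial cells, 43.3% and 20.6% in mesenchymal cells and 33.6% and 11.0% in immune cells. The other 9 replication genes were found in 2.15% to 17.6% of epithelial cells of the first set and in 0.554% to 3.15% of the second. Of the nucleotide supply genes, in epithelial cells RRM2 was found in 17.6% and 0.810%, and TYMS in 15.5% and 0.554%. MCM5 gave 2.15% and 1.07% and MCM6 3.43% and 1.75%. RNA set free from broken cells gives UMIs in cells that do not express a gene. The second set was chosen for having no other mitosis UMI, so it cannot give the level of such RNA, which was not measured. These shares pool the 4 libraries.

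**Figure D2:**
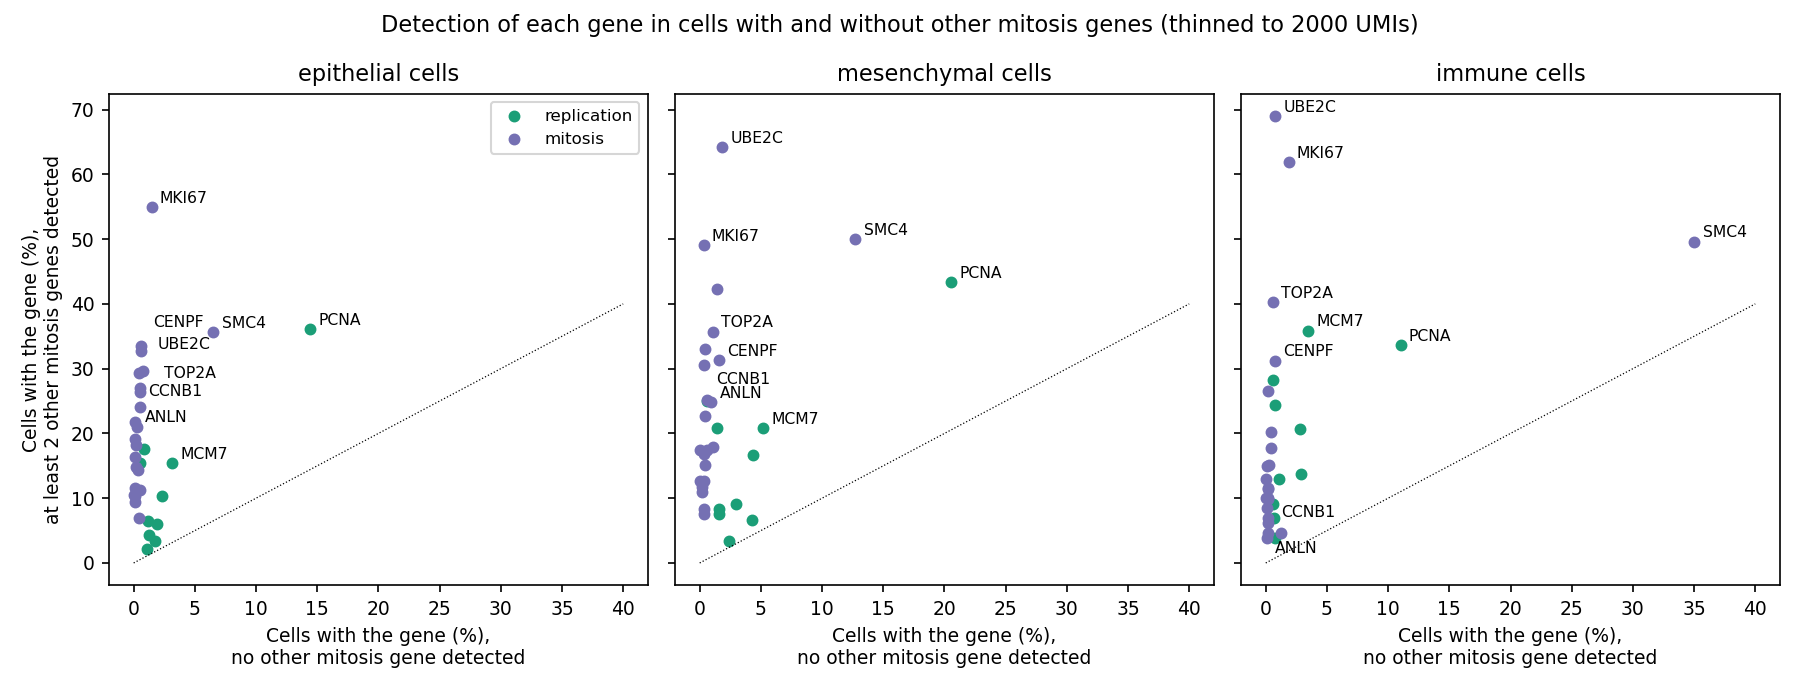
Each point is a replication or mitosis gene: the x axis gives the share (%) of cells with the gene among cells with no other mitosis gene, the y axis the share (%) among cells with at least 2 others, for 3 classes with libraries pooled; the dotted line marks equal shares. SMC4 in immune cells (35.0% and 49.6%) and PCNA in mesenchymal cells (20.6% and 43.3%) lie far to the right of MKI67 (1.86% and 61.9% in immune cells).

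Cells with at least 2 mitosis genes other than SMC4, called mitosis-positive below, were therefore counted as a stricter measure. They made up 9.98% (7.79 to 12.5) and 8.94% (6.95 to 11.3) of epithelial cells of LG252 and 8.09% (5.82 to 10.9) and 7.05% (5.48 to 8.90) of those of LG255, with intervals that overlap between all 4 libraries. The means were 9.46% ± 0.740 in LG252 and 7.57% ± 0.736 in LG255 (SD, n = 2 each), a difference of 1.89 points. At least 2 replication genes were found in 9.98% and 7.26% of epithelial cells of LG252 and in 6.85% and 5.97% of those of LG255. By either count, 5.97% to 9.98% of the epithelial cells of a library carried several division genes. Mitosis-positive cells made up 5.77% (4.80 to 6.87) and 5.19% (2.27 to 9.98) of immune cells of LG252, and were 4 of 22 and 1 of 18 in LG255. Endothelial cells were mitosis-positive in 3.33% and 4.76% of cells of LG252 and in 6.25% and 0% of those of LG255, which is 1, 3, 1 and 0 cells. In each library this share was lower in endothelial than in epithelial cells, by 6.65, 4.18, 1.84 and 7.05 points, but these rest on 30, 63, 16 and 6 endothelial cells, and 4 pairs of libraries cannot give a permutation p below 0.125.

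The mesenchyme of the replicates of LG252 differed widely. Of 193 mesenchymal cells of LG252 replicate 1, 0 were mitosis-positive, which allows a share of up to 1.55%, while 111 of 552 were in LG252 replicate 2, or 20.1% (16.8 to 23.7). In LG255 the counts were 4 of 16 and 5 of 78. At least 2 replication genes were found in 3 of the 193 cells of LG252 replicate 1 and in 103 of the 552 cells of LG252 replicate 2 (18.7%), and in 2 of 16 and 15 of 78 cells of LG255. In the sums of all gated mesenchymal cells, LG252 replicate 1 held 1 UMI of MKI67 and 0 of TOP2A, CDK1, SMC2 and TYMS over 424 cells, while LG252 replicate 2 held 396 UMIs of MKI67, 387 of TOP2A, 191 of CDK1, 336 of SMC2 and 213 of TYMS over 837 cells. Epithelial cells of LG252 replicate 1 were mitosis-positive at 9.98%, so the low value was not shared by all classes of that library. The mesenchymal cells of LG252 replicate 1 were shallower, with a median of 1800.5 UMIs against 3596 in LG252 replicate 2 before thinning, and 54.5% against 34.1% were left out for depth. They also carried more immune marker RNA, 153 against 37.6 CPM, from 13 of the 14 genes of that list in both. The part of these in the gap was not tested.

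The types within the mesenchyme also differed in number between those replicates. Cells with DPT or MFAP5, matrix genes of connective tissue, were mitosis-positive in 0 of 161 cells of LG252 replicate 1 and in 21 of 151 cells (13.9%, 8.82 to 20.5) of LG252 replicate 2. Cells with MSX1 or LHX8, transcription factors of dental mesenchyme, numbered 7 and 302 in these libraries, of which 0 and 69 (22.8%, 18.2 to 28.0) were mitosis-positive. In LG255 the MSX1 or LHX8 cells gave 3 of 11 and 1 of 29, and the DPT or MFAP5 cells 1 of 4 and 1 of 22. These pairs of markers were set apart after the values were seen.

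Within the epithelium, basal-like cells, gated by hemidesmosome and laminin genes such as COL17A1 and LAMB3, were mitosis-positive in 11.3% and 11.2% of cells of LG252 and in 6.75% and 7.53% of those of LG255. The exact intervals were 7.97 to 15.3 and 7.83 to 15.4 in LG252, against 3.91 to 10.7 and 5.10 to 10.6 in LG255, and overlap. Basal-like cells with at least 1 replication gene made up 47.9% and 32.2% in LG252 and 18.6% and 19.7% in LG255, so the gap of the whole class was as large within this type. Dental-like epithelial cells, gated by at least 2 UMIs from at least 2 of SP6, DLX3, FOXI3, IRX1, ISL1 and TBX1, were mitosis-positive in 12.1% and 11.4% of cells of LG252 and in 9.09% and 19.7% of those of LG255. The highest of these values, in LG255 replicate 2, is 12 of 61 cells (10.6 to 31.8). Cells with at least 3 UMIs of MUC22 and TGM4 were mitosis-positive in 2 of 38 and 2 of 58 cells of LG252, and none of these 96 cells carried at least 2 replication genes. Such cells numbered 1 and 5 in LG255, and 2 of those 5 were mitosis-positive. No cell passed the gate for ameloblasts, the enamel-forming cells that no longer divide.

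Among immune cells of LG252 replicate 1, B cells were mitosis-positive in 83 of 1363 (6.09%, 4.88 to 7.49) and T or NK cells in 12 of 233 (5.15%, 2.69 to 8.82). T or NK cells of the other libraries gave 5 of 30 in LG252 replicate 2, and 3 of 5 and 1 of 7 in LG255. JCHAIN-rich cells, with at least 10 UMIs of the joining chain of secreted antibodies, were taken as the type that should lack these genes, since plasma cells have left the cell cycle. They carried at least 1 replication gene in 18.2% and at least 1 mitosis gene in 20% of 55 cells of LG252 replicate 1, at a median of 8921 UMIs before thinning, against 25.8% and 45.3% of B cells at a median of 3384 UMIs. The interval of the 18.2% was 9.08 to 30.9, which holds the 25.8% of B cells. RNA of these genes was thus found in JCHAIN-rich cells. These shares count PCNA and SMC4, the gate rests on JCHAIN alone, and RNA set free from broken cells was not measured. They cannot tell whether plasma cells express the genes. Of these 55 cells 3 were mitosis-positive (5.45%, 1.14 to 15.1), a share within the interval of B cells.

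Replication and mitosis transcripts were partly in the same cells. Of the epithelial cells, 7.22% and 4.47% in LG252 and 4.15% and 3.69% in LG255 carried at least 2 replication genes without being mitosis-positive. A further 2.76% and 2.79% in LG252 and 2.70% and 2.28% in LG255 had both, and 7.22% and 6.15% in LG252 and 5.39% and 4.77% in LG255 were mitosis-positive alone. The share with both was nearly constant over the 4 epithelial samples. Immune cells of LG252 replicate 1 divided into 3.32% with replication genes alone, 3.42% with both and 2.35% with mitosis genes alone. Mesenchymal cells of LG252 replicate 2 divided into 10.1%, 8.51% and 11.6% in the same order.

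**Figure D3:**
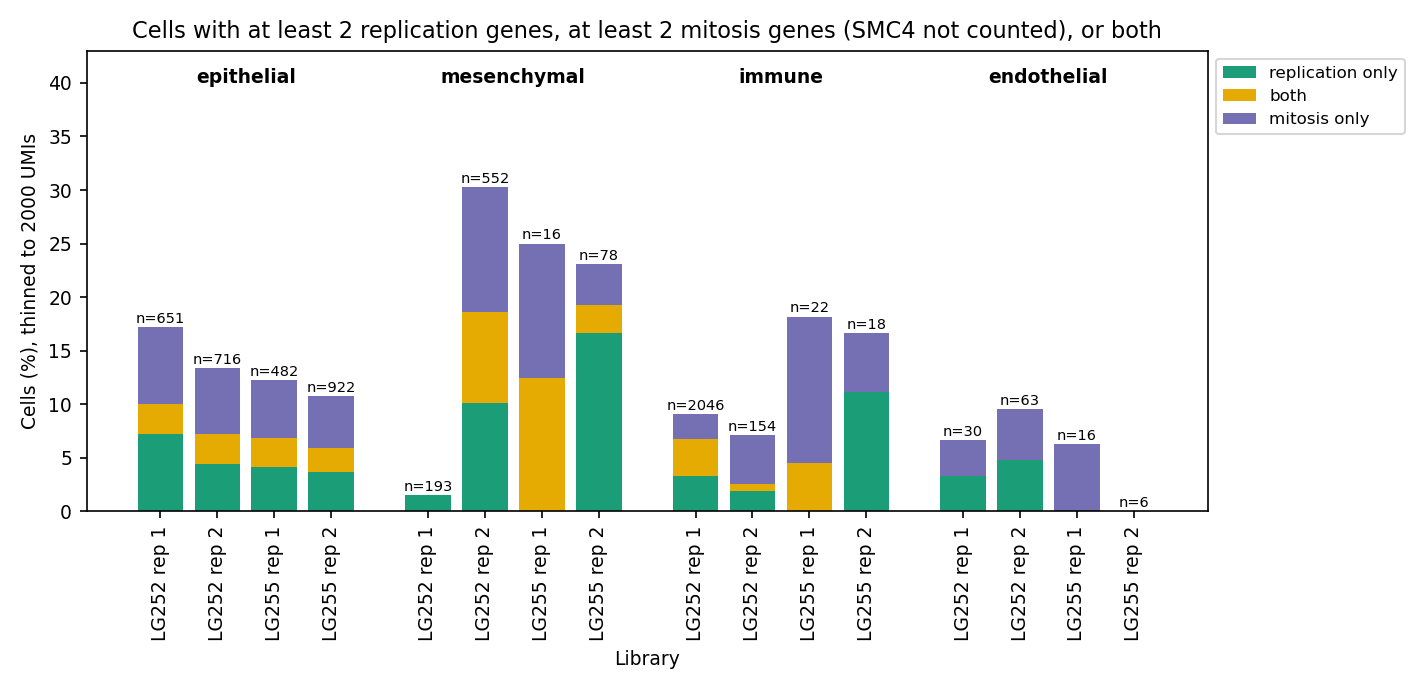
Stacked bars give the share of cells (%, thinned to 2000 UMIs) with at least 2 replication genes only, with both sets, or with at least 2 mitosis genes only (SMC4 not counted), by class and library, with the number of cells above. The mesenchymal bar of LG252 replicate 1 holds 1.55% with replication genes only and no mitosis-positive cell, next to 10.1%, 8.51% and 11.6% in LG252 replicate 2.

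Most mitosis-positive cells of LG255 were epithelial, 39 of 50 in replicate 1 and 65 of 76 in replicate 2, as were most cells of that animal (82.1% and 84.0% of thinned cells). In LG252 replicate 1, 118 of 197 were immune (59.9%, while immune cells were 60.6% of thinned cells) and 65 epithelial (32.99%, while epithelial cells were 19.3%). In LG252 replicate 2, 111 of 193 were mesenchymal (57.5%, while mesenchymal cells were 32.9% of thinned cells) and 64 epithelial. Mitosis-positive cells were deeper than the rest of their class in most libraries: 16639 against 11115.5 UMIs in epithelial cells of LG252 replicate 1, 10826 against 7944 in LG252 replicate 2 and 11374 against 8984 in LG255 replicate 2. The exception among epithelial samples was LG255 replicate 1, with 5920 against 7019. In immune cells of LG252 replicate 1 the medians were 7584 and 3351.5 UMIs. These are depths before thinning. The counts and depths above include the cells of the highest doublet scores. With these left out, the same 5 members as below passed in the edgeR test between the animals in epithelial cells, which does not bear on the depths.

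The summed counts of each class and library give the level of each gene. A class sum cannot tell fewer cells in division from less RNA in each. In epithelial cells, the mitosis list without SMC4 summed to 339 and 347 CPM in LG252 and to 400 and 331 CPM in LG255. The libraries of the animals thus overlapped, but this sum joins members that went in opposite directions. UBE2C had a mean of 58.7 CPM in epithelial cells of LG252 against 9.49 CPM in LG255, and CENPF 21.4 against 46.3 CPM. In mesenchymal cells the same sum was 20.6 and 1135 CPM in LG252 and 1289 and 694 CPM in LG255. The replication list without PCNA summed to 190 and 127 CPM in epithelial cells of LG252 and to 143 and 101 CPM in those of LG255. PCNA alone stood at 216 and 139 CPM in epithelial cells of LG252 and at 83.2 and 78.2 CPM in those of LG255.

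**Figure D4:**
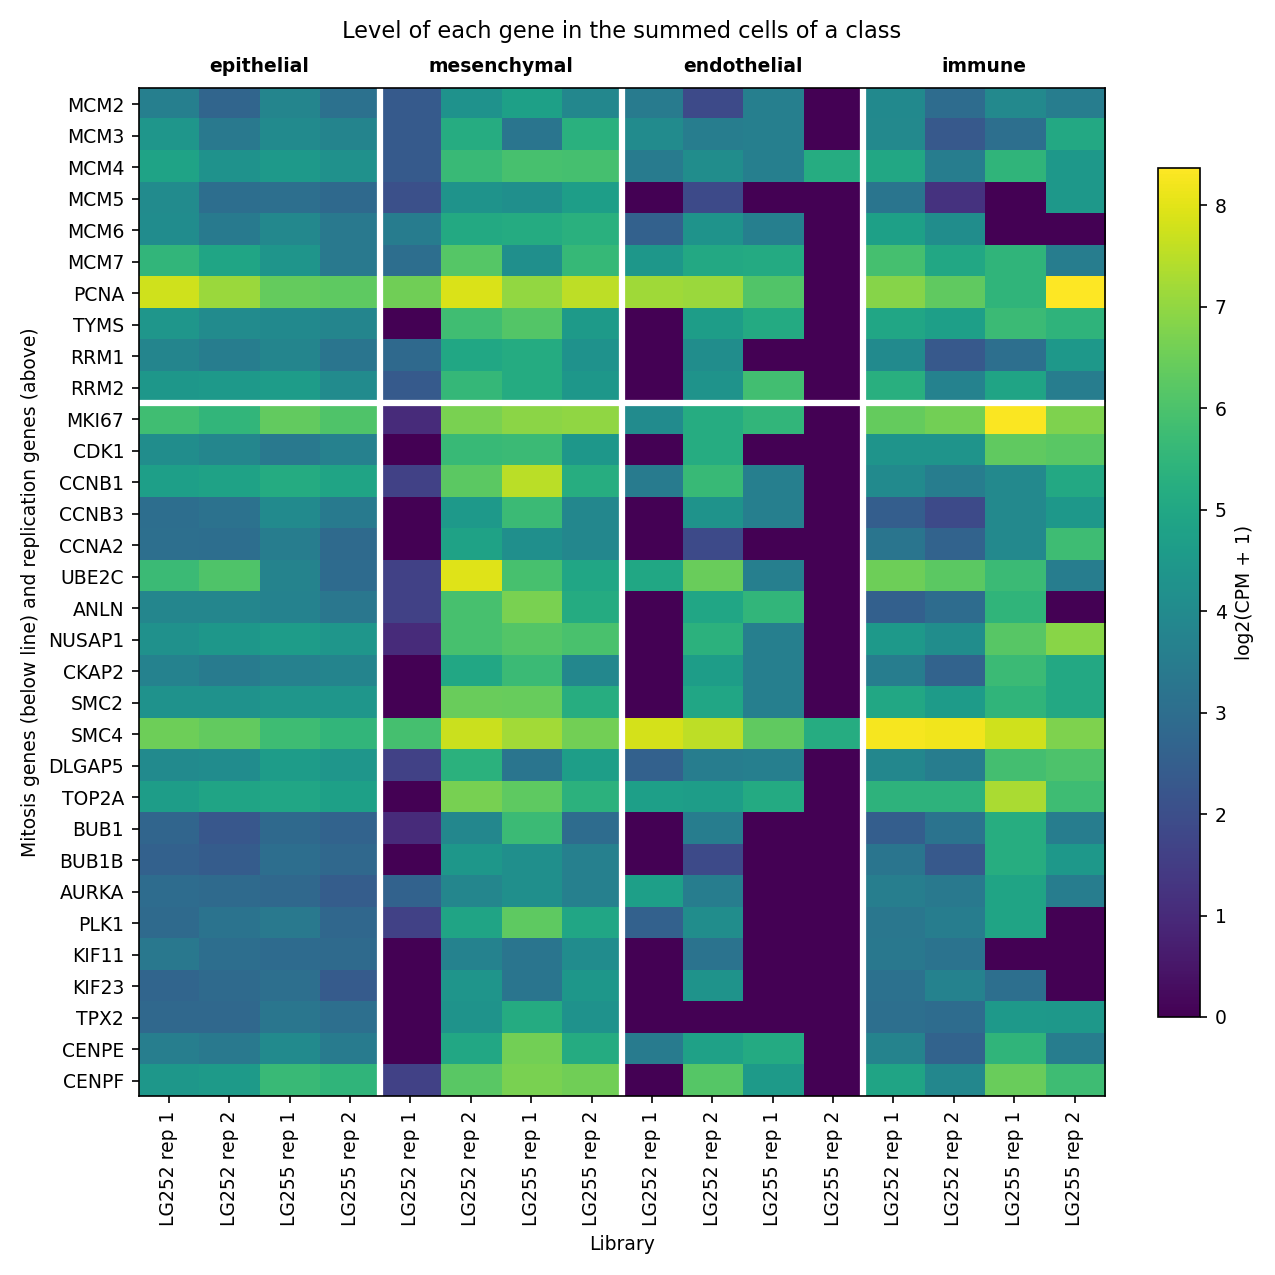
Colours give log2(CPM + 1) of the 32 genes (rows, replication above the line and mitosis below) in the summed cells of each class and library (columns). Mesenchymal cells of LG252 replicate 1 are dark for nearly all mitosis genes except SMC4 (58.8 CPM), while epithelial columns differ less between libraries. Endothelial sums of LG255 replicate 2 rest on 14 cells.

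The animals were then compared gene by gene with edgeR's quasi-likelihood test on the class sums, with Benjamini-Hochberg adjustment over all genes tested. In epithelial cells UBE2C, MCM7, PCNA and SMC4 were higher and CENPF lower in LG252 than in LG255, and the other 27 members did not pass. These 5 of 32 members compare with 33.3% of all 12942 genes tested, so the share called was lower among the members than among all genes. UBE2C had 51.7 and 65.8 CPM in LG252, against 12.3 and 6.65 CPM in LG255, a log2 fold change of 2.83 (SE 0.25, adjusted p = 4.68e-05, edgeR). UBE2C lies on chromosome 5, at 174268206 to 174272233. MCM7, the helicase subunit on the same chromosome (175266804 to 175276440), had 44.6 and 29.0 CPM in LG252, against 19.4 and 9.51 CPM in LG255 (log2 1.56, SE 0.30, adjusted p = 0.00376, edgeR). The libraries of the animals did not overlap for either gene. PCNA rose by a log2 of 1.27 (SE 0.26, adjusted p = 0.00503, edgeR), and SMC4, at 90.4 and 80.4 CPM in LG252 and 53.5 and 44.1 CPM in LG255, by 0.94 (SE 0.19, adjusted p = 0.00518). CENPF, a kinetochore protein encoded on chromosome 1 (190674417 to 190722624), had 20.4 and 22.4 CPM in LG252, against 49.6 and 43.1 CPM in LG255 (log2 -0.99, SE 0.19, adjusted p = 0.0036, edgeR).

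By list, the same comparison gave these counts. Of the 10 replication genes, 9 had a log2 fold change above 0, with a median of 0.34 and a range of -0.09 to 1.56, and 2 rose. Of the 22 mitosis genes 9 were above 0, with a median of -0.05 and a range of -0.99 to 2.83, and 2 rose and 1 fell. The median over all genes was -0.01. The other MCM genes did not pass: MCM5 had a log2 of 0.87 (adjusted p = 0.0989, edgeR) and MCM2 one of -0.09 (adjusted p = 0.864). MKI67 had 54.3 and 44.5 CPM in LG252, against 80.6 and 66.4 CPM in LG255 and did not pass (log2 -0.43, adjusted p = 0.122, edgeR), and TOP2A was level at 24.2 and 28.4 CPM in LG252 and 29.9 and 25.9 CPM in LG255. With LG252 replicate 2 left out, LG252 was left with replicate 1 alone, and the replication genes had a median log2 of 0.69, where that over all genes was -0.02. The median of the replication genes was 0.17, 0.44 and 0.32 without LG252 replicate 1, LG255 replicate 1 and LG255 replicate 2. In a fit of thinned cells 5 members passed, with MKI67 (log2 -0.75, adjusted p = 0.0442, edgeR) in place of CENPF (-0.77, adjusted p = 0.0698). Beside these, mitochondrial UMIs and depth differed between the animals as given above, and immune marker RNA in the epithelial sums was 58.5 and 25.6 CPM in LG252 (14 and 13 of 14 genes found) and 11.8 and 8.14 CPM in LG255 (7 and 11 of 14), where immune cells themselves hold at least 1618 CPM. With only cells of at most 20% mitochondrial UMIs the same 5 genes passed; the part of the rest was not tested.

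**Figure D5:**
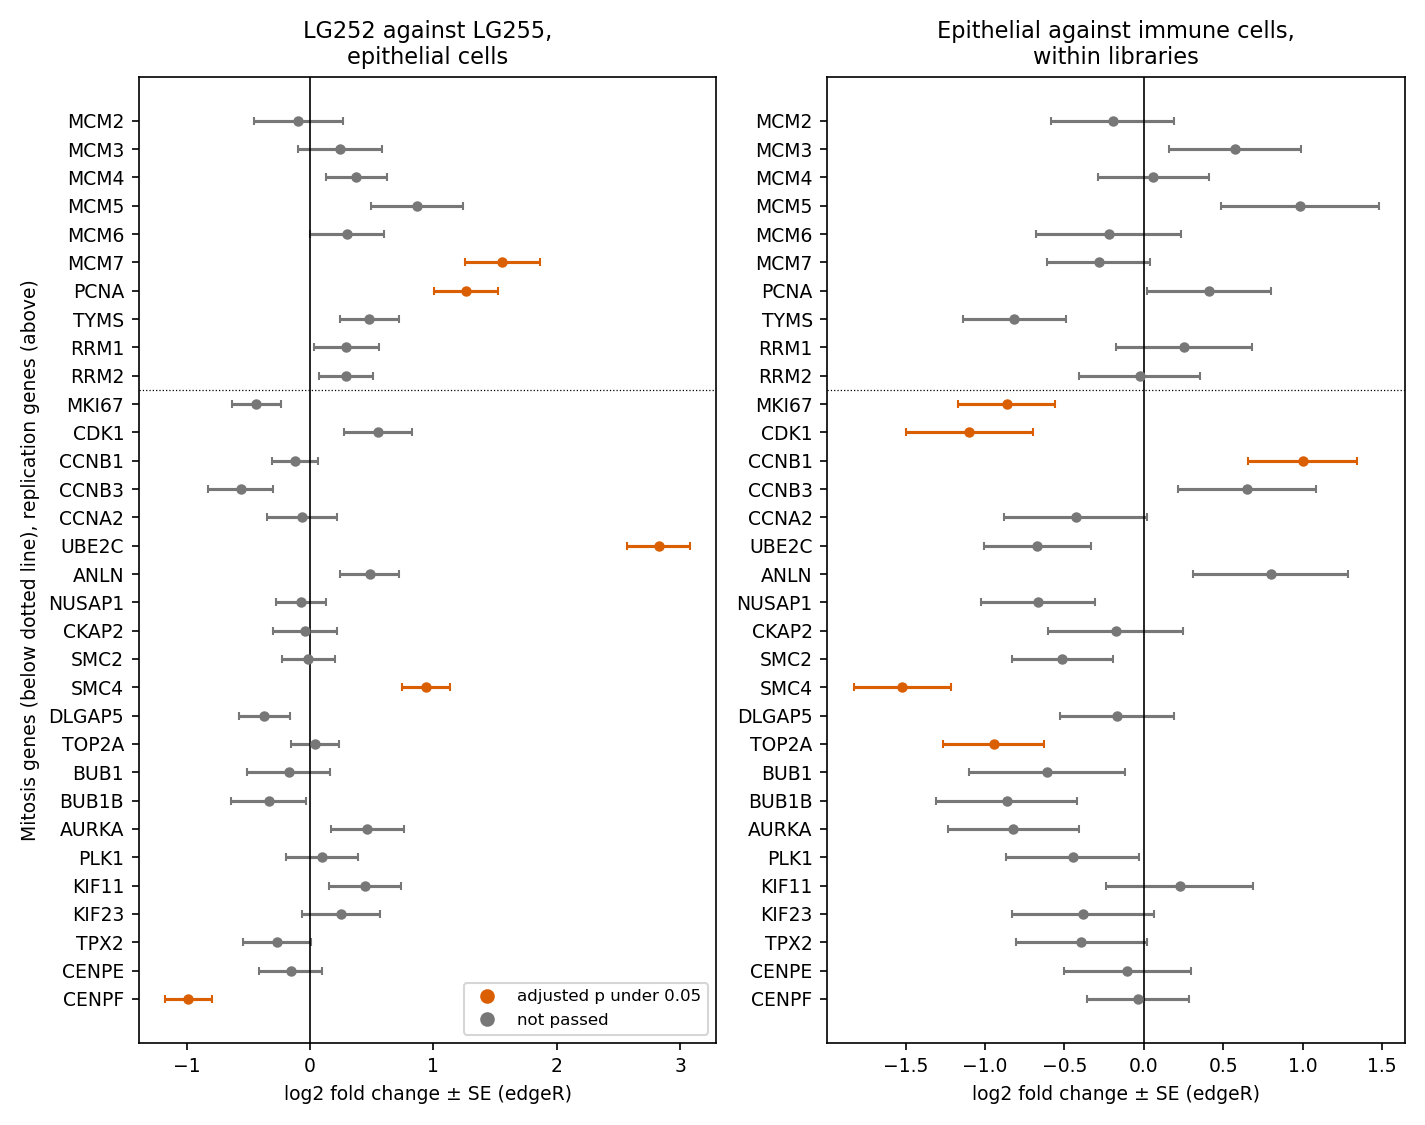
Log2 fold changes ± SE (edgeR) of the 32 genes, LG252 against LG255 in epithelial cells (left) and epithelial against immune cells within libraries (right); orange marks an adjusted p under 0.05. UBE2C (2.83) and CENPF (-0.99) stand at the ends on the left, and CCNB1 (1.00) and SMC4 (-1.52) on the right.

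The share of mitosis-positive cells with a gene lay in the direction of the sums for UBE2C, CENPF and PCNA, but not for SMC4 and MCM7. UBE2C was found in 42.6% (30.0 to 55.9) and 53.4% (39.9 to 66.7) of epithelial cells with at least 2 other mitosis genes in LG252, against 28.2% (15.0 to 44.9) and 7.69% (2.54 to 17.0) in LG255. CENPF was found in 18.3% and 30.2% of such cells in LG252 and in 47.4% and 42.9% in LG255. TOP2A, which did not differ in the sums, was found in 12.5% and 29.0% in LG252 and in 36.8% and 44.1% in LG255, and MKI67 in 51.7% and 39.3% in LG252 and in 70.3% and 64.9% in LG255. PCNA was found in 43.1% and 40.6% in LG252 and in 28.2% and 29.2% in LG255. SMC4, higher in LG252 in the sums, was found in fewer such cells of LG252, 26.2% and 34.4%, than of LG255, 41.0% and 43.1%, and MCM7 in 16.9% and 17.2% in LG252 and in 20.5% and 9.23% in LG255. The libraries of the animals overlapped for MCM7, and single intervals overlapped for others. A lower share in LG252 without overlap was also found for many members that did not pass in the sums. NUSAP1 gave 13.1% and 20.3% against 38.5% and 38.1%, and SMC2 16.4% and 19.0% against 35.1% and 41.0%. Only UBE2C and PCNA were higher in LG252 without overlap. A lower share was thus not particular to CENPF, TOP2A, MKI67 or SMC4, and the share over all genes was not computed. For every gene but UBE2C itself, UBE2C counts among the other mitosis genes that select these cells. No count without UBE2C was made, so the part of this selection was not tested. The cells are those of the sums, so these shares are a description of the same difference and no further test.

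The counts of the other lists stand beside 33.3% of all genes called in this comparison. Of 50 other replication genes tested in epithelial cells, 2 rose and 2 fell in LG252: CDT1, the licensing factor that loads MCM proteins (log2 1.78, adjusted p = 0.00131, edgeR), and POLA2, a subunit of the primase complex (1.51), rose, while the polymerase delta subunits POLD2 (-1.005) and POLD3 (-1.09) fell. POLD3 did not pass without LG252 replicate 2 (adjusted p = 0.0678, edgeR) or LG255 replicate 1 (0.0824). Of 54 other mitosis genes, 5 rose and 1 fell. CKS2, a small CDK-binding protein, had 269 and 256 CPM in LG252, against 82.4 and 95.2 CPM in LG255 (log2 1.67, adjusted p = 0.000735, edgeR), and the ubiquitin-conjugating enzyme UBE2S (1.56), which works with UBE2C, and the kinesin KIFC1 (1.89) rose as well. KIF22 fell by 0.79 on the log2 scale (adjusted p = 0.0467, edgeR) and did not pass when any single library was left out (adjusted p = 0.0596 to 0.2). Of 28 regulators of the cycle tested, 7 rose and 2 fell. MYC, a growth-promoting transcription factor, had 296 and 228 CPM in LG252, against 26.8 and 15.4 CPM in LG255 (log2 3.81, adjusted p = 1.93e-05, edgeR). The CDK inhibitors CDKN1A (2.68) and CDKN1B (2.51), which hold cells back from division, also rose, and CDK6 (-1.05) and CCND1 (-0.84), which carry cells through G1, fell. Neither passed without LG255 replicate 1 (CDK6 at -0.82, adjusted p = 0.0792, and CCND1 at -0.60, adjusted p = 0.149, edgeR).

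In immune cells, CDK1 was the sole member of 15 tested that passed, lower in LG252, where 3.26% of all 4485 genes tested were called. CDK1, on chromosome 6 (119754594 to 119771832), had 19.4 and 18.9 CPM in LG252, against 79.6 and 74.5 CPM in LG255 (log2 -1.98, SE 0.39, adjusted p = 0.0495, edgeR). The LG255 values are 11 and 7 UMIs from 25 and 22 cells, and the call was lost when any library was left out (adjusted p = 0.181 and 0.176 without LG255 replicates 1 and 2, 0.446 and 0.335 without LG252 replicates 1 and 2) and with the replicate number as a block (adjusted p = 0.108). The other 17 members were too low for the filter on counts, and CDK1 itself was high enough in LG255 alone, so that its passing the filter and its direction are not independent. With no filter CDK1 did not pass (log2 -1.58, adjusted p = 0.0615, edgeR), while MCM6, SMC4 and UBE2C were called higher and NUSAP1 lower in LG252, in a fit whose median over all genes was 0.98. NUSAP1 (-2.18) and DLGAP5 (-2.24), spindle proteins, had an adjusted p of 0.0516 each in edgeR. Like CDK1, both were high enough for the filter in LG255 alone, so their direction is no independent result. Their means were 94.8 and 60.9 CPM in LG255, against 19.2 and 12.2 CPM in LG252. UBE2C and SMC4 had a log2 of 1.37 and 0.90 without passing (adjusted p = 0.168 and 0.172, edgeR). Outside the list CKS1B fell (log2 -1.61, adjusted p = 0.0431, edgeR), and was not called without LG255 replicate 1 (adjusted p = 0.166) or replicate 2 (0.173). TOB1 (3.20), MYC (2.34) and BTG1 (1.64), of which TOB1 and BTG1 restrain proliferation, rose. TOB1 was high enough for the filter in LG252 alone (159 and 146 CPM, against 21.7 and 10.6 CPM in LG255). Its passing the filter and its direction are thus not independent. TOB1, MYC and BTG1 all lost their call without LG255 replicate 1 or without LG255 replicate 2. B cells were 1363 of the 2046 thinned immune cells in LG252 replicate 1, 39 of 154 in LG252 replicate 2, and 0 of 22 and 2 of 18 in LG255, so the immune sums of the animals differ in their cell types, whose part was not tested.

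In mesenchymal cells none of 29 members tested differed between LG252 and LG255 at an adjusted p under 0.05 or at an unadjusted p under 0.05 in edgeR, and none passed in DESeq2, where 0.778% of all 7588 genes were called by edgeR. The replicates of LG252 lay far apart. Without LG252 replicate 2, LG252 was left with replicate 1 alone. There MKI67 (log2 -6.39, edgeR) and CENPF (-5.18) were lower than in LG255. Both were high enough for the filter in LG255 alone in that fit, so their direction is no independent result. Without LG252 replicate 1 UBE2C alone passed, and it was higher in LG252 (log2 2.82, adjusted p = 2.14e-06, edgeR). LG255 replicate 1 held 21 mesenchymal cells. MYC was the sole regulator of 18 tested that passed, with 351 and 249 CPM in LG252 against 25.8 and 29.7 CPM in LG255 (log2 3.56, adjusted p = 0.033, edgeR); it was lost without LG255 replicate 1 (adjusted p = 0.53) or replicate 2 (0.64). Endothelial cells numbered 14 in LG255 replicate 2, under the minimum of 20 for a test.

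The animal effect itself was compared between epithelial and immune cells in 1 fit. CDK1 passed, with an animal effect that was higher in epithelial than in immune cells by a log2 of 2.08 (SE 0.64, adjusted p = 0.0443, edgeR), where 2.70% of all 13333 genes were called. CDK1 was at 16.2 and 13.5 CPM in epithelial cells of LG252 and at 9.45 and 11.9 CPM in those of LG255. The median of this difference over all genes was -0.59 with TMM scaling and -0.28 with DESeq2 size factors, and relative to these medians CDK1 differed by 2.66 and 2.68. The call rests on the same 18 immune UMIs of LG255 and was lost without LG252 replicate 1 (adjusted p = 0.361) and without LG255 replicate 1 (0.397). Of the other lists CKS2 (2.20, adjusted p = 0.000209, edgeR) and BTG1 (-2.14, adjusted p = 2.91e-06) passed. CKS2 was lost without LG255 replicate 1 (adjusted p = 0.321).

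The last question was whether the classes differ within libraries. Epithelial cells had more CCNB1 and less SMC4, TOP2A, MKI67 and CDK1 than immune cells, 5 of 32 members, where 34.7% of all 13333 genes were called. SMC4 stood at 90.4 and 80.4 CPM (LG252) and 53.5 and 44.1 CPM (LG255) in epithelial cells, against 306 and 290 CPM (LG252) and 217 and 106 CPM (LG255) in immune cells, lower in 4 of 4 libraries (log2 -1.52, SE 0.31, adjusted p = 0.000455, edgeR). CCNB1, cyclin B1, on chromosome 8 (38361951 to 38367420), stood at 25.7, 27.1, 34.4 and 28.5 CPM in epithelial cells, against 15.1, 10.8, 14.5 and 31.9 CPM in immune cells, with LG252 before LG255. It was thus higher in epithelial cells in 3 of 4 libraries (log2 1.00, SE 0.34, adjusted p = 0.0279, edgeR). The immune CCNB1 values of LG255 rest on 5 UMIs over both libraries. MKI67 (-0.86, adjusted p = 0.0329), TOP2A (-0.95, adjusted p = 0.0246) and CDK1 (-1.10, adjusted p = 0.0379) were lower by the same edgeR test. SMC4 passed whichever library was left out, and each of the other 4 lost its call without at least 2 of the libraries. CCNB1 was lost without LG252 replicate 1 (adjusted p = 0.0952) or replicate 2 (0.245), CDK1 without LG255 replicate 1 (0.172) or replicate 2 (0.144), and MKI67 and TOP2A without LG252 replicate 2 (0.188 and 0.0606) or LG255 replicate 1 (0.134 and 0.144). In cells thinned to 2000 UMIs, CCNB1 (log2 3.19), ANLN (2.49) and CCNB3 (1.90) were higher and SMC4 (-1.64) lower in epithelial cells. In that fit the epithelial cells alone brought CCNB1, ANLN and CCNB3 past the filter, so their directions are no independent results. MKI67 (0.023) and CDK1 (0.64) were no longer below 0 there and did not pass.

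Mitosis-positive cells of both classes were set side by side within LG252 replicate 1, the library with many cells of both. CCNB1 was found in 26.6% (16.3 to 39.1) of epithelial cells with at least 2 other mitosis genes, against 6.84% (2.998 to 13.0) of such immune cells. ANLN, the scaffold of the cleavage furrow, was found in 17.5% (9.05 to 29.1) of the epithelial and 3.39% (0.931 to 8.45) of the immune cells. For both genes the intervals did not overlap. UBE2C went the other way, with 42.6% (30.0 to 55.9) of epithelial and 69.6% (59.7 to 78.3) of immune cells, as did TOP2A with 12.5% (5.55 to 23.2) and 36.9% (28.0 to 46.6). So did MCM7 with 16.9% and 38.1%, MCM6 with 1.54% and 14.4%, and SMC4 with 26.2% and 48.3%, also without overlap of the intervals. In cells of this library with no other mitosis gene, SMC4 was found in 10.1% of epithelial and 35.5% of immune cells. Its gap was thus not particular to mitosis-positive cells. MKI67 was found in 51.7% and 60.2%, with intervals that overlap. CCNB1 in the other epithelial samples was found in 32.8% of such cells in LG252 replicate 2 and in 27.0% and 30.2% in LG255, close to the 26.6% above, and mesenchymal cells of LG252 replicate 2 had CCNB1 in 28.4% (20.2 to 37.9) and ANLN in 24.1% (16.4 to 33.3). Cells of 1 library are not replicates, so these intervals cover counting error only and no test was made. The share of all genes without overlap was not computed. UBE2C counts among the other mitosis genes that select these cells for every gene but itself, and the part of this selection was not tested.

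Epithelial and mesenchymal cells did not differ in any of 32 members at an adjusted p under 0.05 in edgeR, where 30.1% of all 13252 genes were called; 1 member, PLK1 (log2 -1.15, adjusted p = 0.112), had an unadjusted p under 0.05, and DESeq2's Wald test called none. Without LG252 replicate 1, 10 members were lower in epithelial cells: ANLN, CDK1, CENPE, MCM4, MCM6, NUSAP1, PLK1, SMC2, TYMS and UBE2C, with ANLN at log2 -1.72 (adjusted p = 3.95e-05, edgeR). In that fit 2292 genes were higher and 1667 lower of all 12804 tested, so the members were called about as often as all genes. Mesenchymal and immune cells likewise differed in none of 31 members in edgeR, where 30.9% of all 8455 genes were called, with 1 member, SMC4 (-1.14, adjusted p = 0.0567), at an unadjusted p under 0.05; DESeq2's Wald test called SMC4 (-1.16, adjusted p = 0.0378). Without LG252 replicate 1, ANLN (2.03), CCNB1 (2.11) and CENPE (1.44) were higher and SMC4 (-0.84) lower in mesenchymal cells, where 884 genes were higher and 857 lower of all 4614 tested. In that fit the mesenchymal cells alone brought CCNB1 and ANLN past the filter, so their directions are no independent results. CENPE rests on 7 immune UMIs in LG255. Without LG255 replicate 1 or replicate 2 SMC4 alone passed (-1.41 each).

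Among the 28 regulators tested between epithelial and immune cells, 5 were higher and 3 lower in epithelial cells, a share that is no larger than the 34.7% of all genes called there, as is that of the other lists. The D-type cyclins, which start the cycle with CDK4 and CDK6, divided by class: CCND1 stood at 15.7, 17.8, 42.5 and 25.0 CPM in epithelial cells against 4.44, 4.06, 7.24 and 10.6 CPM in immune cells (log2 2.03, adjusted p = 0.000289, edgeR), and CCND3 at 14.7, 19.8, 16.01 and 12.03 CPM in epithelial cells against 149, 90.7, 138 and 95.8 CPM in immune cells (log2 -2.67, adjusted p = 7.72e-07). Both held in 4 of 4 libraries, but the immune CCND1 values are 3 UMIs in LG252 replicate 2 and 1 UMI in each library of LG255. KLF4 (2.20) and TOB1 (1.70) were higher and RBL2 (-1.88), a pocket protein of the retinoblastoma family, and BTG1 (-1.09) lower in epithelial cells. BTG1 was not called without LG252 replicate 1 (adjusted p = 0.113, edgeR) or LG252 replicate 2 (0.334), nor was RBL2 (0.0799 and 0.073). Of 51 other replication genes, CDCA7 (1.01) was higher and TK1 (-2.61, with 0 UMIs in the immune cells of LG255) and RFC2 (-1.11) lower in epithelial than in immune cells. TK1 was high enough for the filter in the immune cells of LG252 alone, so its direction is no independent result. It stood at 5.30 and 6.77 CPM there, against at most 1.05 CPM in epithelial cells. Of 54 other mitosis genes 6 were lower and none higher, with NDC80 (-1.42), RACGAP1 (-1.15) and ASPM (-1.20) named by the smallest p; NDC80 held without any single library, RACGAP1 was lost without LG252 replicate 1 (adjusted p = 0.14) or replicate 2 (0.0569), and ASPM without LG255 replicate 1 (0.157). RFC2 and CDCA7 were also lost without LG252 replicate 1 (adjusted p = 0.156 and 0.152) or LG252 replicate 2 (0.167 and 0.112).

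MYCN, a relative of MYC, was highest in mesenchymal cells in 3 of 4 libraries. It stood at 0, 51.3, 42.96 and 45.6 CPM there, against 0.433, 2.71, 0 and 0 CPM in immune cells (log2 3.08, adjusted p = 0.0166, edgeR) and 0.623, 4.08, 8.92 and 5.73 CPM in epithelial cells (epithelial against mesenchymal log2 -2.31, adjusted p = 0.00254). Against immune cells, MYCN was high enough for the filter in mesenchymal cells alone, so that direction is no independent result. The mesenchymal value of 0 is again LG252 replicate 1. Both calls were lost without LG252 replicate 2 (adjusted p = 0.345 and 0.106). CDCA7 (1.85), KLF4 (1.35), E2F2 (1.76) and BTG2 (1.37) were higher and CDK6 (-1.23) lower in epithelial than in mesenchymal cells, where 5 of 28 regulators were higher and 2 lower beside 30.1% of all genes called, and E2F2 and CDK6 were lost without LG252 replicate 2 (adjusted p = 0.0708 and 0.168). Mesenchymal cells shared with epithelial cells the higher CCND1 (2.28), and the lower CCND3 (-2.21), BTG1 (-1.35) and RBL2 (-1.97), against immune cells. In that comparison CCND1 was high enough for the filter in mesenchymal cells alone, and RBL2 in immune cells alone. Their directions there are no independent results. NDC80 (-1.83) was lower in mesenchymal than in immune cells and was lost without LG252 replicate 2 (adjusted p = 0.0771).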

How the data were processed

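The authors deposited raw UMI counts, whole numbers for each gene in each barcode, from 4 droplet libraries (single-cell 3′ chemistry, per the labels' protocols). The authors made them with Cell Ranger 7.1.0, per the file headers, while the submitters' processing notes name version 2.1.0. Reads were aligned to MPM_Emac_v1.0, as the design text of the series says. Which annotation release was used, whether introns were counted and how cells were called are not given in the sources used here. Totals ran from 4535439 to 20754804 UMIs per library. Gene positions come from RefSeq's table of the same assembly, in which 23658 of the 24025 features were found.

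The members and all gene lists were chosen with earlier results of these data known. All barcodes were gated by marker UMIs, and 23 of 30 epithelial, 24 of 24 mesenchymal, 20 of 20 endothelial and 14 of 24 immune markers were in the tables. Cells with near-equal UMIs of several lists stayed unassigned. This leaves out only mixed doublets in which no list reached 3 times every other. A doublet dominated by the markers of 1 class can remain, and no caller was run in the main analysis. JCHAIN was the sole plasma marker found, so the planned rule of at least 2 genes gave way to at least 10 JCHAIN UMIs after the files were seen. Shares came from 1 seeded thinning to 2000 UMIs, with exact Clopper-Pearson 95% intervals and a limit of 3 counts for a count of 0.

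UMIs were summed per library and class and tested with edgeR 4.0.16 (quasi-likelihood, TMM, filterByExpr, Benjamini-Hochberg at 0.05 over all genes tested; R 4.3.3), after the fit was tested on simulated counts with known changes. CPM are UMIs per 1000000 UMIs of the class sum. Animals were compared without a block in classes with at least 20 cells per library, and classes within libraries, the library entering as a term. An SE is the size of the log2 fold change divided by the root of F. Named were all members past the threshold, the most abundant ones, and up to 3 genes of each other list per direction with the smallest p. Alternatives used DESeq2 1.42.0, Scrublet in scanpy 1.11.5, other gates, depths and filters, and each library left out. The replicate numbers were not used as pairs in the main fits.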

Additional observations from a re-analysis of the deposited data

Results flagged for a closer look

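The effect of the animal on CDK1 differed between classes, by a log2 of 2.08 for epithelial minus immune cells (SE 0.64, adjusted p = 0.0443, edgeR with an interaction term). LG252 was above LG255 in epithelial cells (16.2 and 13.5 CPM against 9.45 and 11.9 CPM) and below it in immune cells (19.4 and 18.9 CPM against 79.6 and 74.5 CPM). The immune values of LG255 are 11 and 7 UMIs.

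The share of cells with at least 1 replication gene was compared as endothelial minus immune. It was above 0 in both libraries of LG252 (11.4 and 12.6 points) and below 0 in both of LG255 (-1.14 and -33.3 points). The means were 29.2 points apart, but LG255 replicate 1 lay near 0. This pair of classes was picked for its opposite signs, so the signs are no independent result. The difference was not tested, and LG255 held 16 and 6 endothelial and 22 and 18 immune cells after thinning.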

How the results depend on the processing

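Differences in share between LG252 and LG255 depended on depth and on how many genes were asked for. For replication genes in epithelial cells the 16.6 points became 9.17 at 1000 UMIs, 24.8 at 4000 UMIs, 31.6 without thinning, 2.22 for at least 2 genes and 4.14 without PCNA; for mitosis genes the 9.71 points became 6.44, 16.7, 25.0, 3.08 and, without SMC4, 5.02 in the same order. The counts without PCNA or SMC4 were chosen after seeing the data. Replication shares moved to -10.4 points in mesenchymal cells without thinning, to 13.6 in immune cells at 4000 UMIs, and in endothelial cells to -12.9 at 4000 UMIs, 4.05 for at least 2 genes and 5.92 without PCNA; mitosis shares moved to 42.1 (4000 UMIs) and 3.38 (at least 2 genes) in endothelial cells and to -3.49 (at least 2 genes) in immune cells. Leaving out 1 library gave 10.6 to 22.5 points for replication in epithelial cells, -9.74 to 12.3 in mesenchymal, 20.9 to 33.4 in endothelial and -11.9 to 7.76 in immune cells, and for mitosis 8.90 to 10.5, -14.5 to 13.4, 5.26 to 36.5 and -2.80 to 26.0. The 5 members called in epithelial cells between the animals became 5 to 9 with a library left out. In immune cells the 1 of 15 members became 2 of 15 with DESeq2 size factors, 3 of 15 with its Wald test and 4 of 32 with no filter. It became 6 of 14 with the stricter gate, which left 13 and 7 immune cells in LG255, and 0 of 16 with the looser gate. Of all genes, size factors gave 121 higher and 46 lower of 4485, and the Wald test 186 and 122 of 4485. No filter gave 645 and 135 of 16637, the stricter gate 131 and 85 of 2552 and the looser gate 88 and 26 of 5767. In mesenchymal cells it was 1 of 32 with no filter, where 503 genes were higher and 58 lower of all 16861. The changes with a library left out are given above. Epithelial against immune cells gave 2 (Wald test), 3 (no library block), 2 (looser gate) and 2 to 5 (a library left out) in place of 5; epithelial against mesenchymal cells gave 0 to 10 with a library left out; mesenchymal against immune cells gave 1 with size factors, the Wald test, thinned cells, the mitochondrial limit or doublets removed, 2 with no filter and 0 to 4 with a library left out, in place of 0. Beside these, epithelial against immune cells had 2431 genes higher and 1365 lower of 13333 (Wald test), 2082 and 1185 of 11940 (no library block) and 2959 and 1841 of 13537 (looser gate). The interaction gave 3 (size factors), 0 (no filter), 0 (thinned), 3 (stricter gate), 2 (mitochondrial limit) and 2 (doublets removed) in place of 1. Of all genes, 274 were higher and 147 lower of 13333 with size factors, and 153 and 143 of 13120 with the stricter gate. Counts given without the share of all genes are no result about the members. With the replicate number as a block 5 members passed in epithelial, 0 in immune and 0 in mesenchymal cells, and 0 in the interaction. Deviations of same-numbered libraries from the mean of their animal had correlations of -0.0678, -0.0551 and -0.0379 over genes. These are for epithelial, immune and mesenchymal cells. With 2 libraries per animal, such a correlation cannot tell whether the numbers pair libraries. Of 712 values of single genes under the alternatives 598 kept direction and side of the threshold, 112 no longer passed and 2 turned, CDK1 (0.64) and MKI67 (0.0232) in epithelial against immune cells when thinned. The cause of these changes was not tested, save that fewer libraries or cells enter some fits. The mesenchymal, endothelial and immune values of LG255 rest on 14 to 104 cells a library, and 54.5% of the mesenchymal cells of LG252 replicate 1 were too shallow to be thinned.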

Other observations

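Cells that passed no gate numbered 718 and 314 in LG252 and 128 and 156 in LG255, at a median of 2601.5, 2826.5, 1477 and 1561.5 UMIs. After thinning they were mitosis-positive in 8 of 444 and 6 of 191 cells of LG252 and in 2 of 51 and 5 of 74 cells of LG255, so few of the mitosis-positive cells lay outside the named classes. SMC4 gave them at least 1 mitosis gene in 36.7% and 36.1% of cells in LG252, against 8.33% and 12.04% of the same cells when it was not counted.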
